A study of Mus musculus with 6 samples.

Results

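Genes of mitochondrial complex I were compared between lung endothelial cells of mice with and without HIF-2α, a transcription factor that is stable at low oxygen. Endothelial cells form the inner lining of vessels. Members were all genes whose platform symbol begins with Nduf and that at least 1 probe set names alone, and the probe set with the highest mean over the 6 arrays stood for a gene. This gave 44 genes of 18194 named alone in all. They comprised 34 structural subunits, 8 assembly factors and the pair Ndufa4 and Ndufa4l2, and 1 of them, Ndufaf3, lies on chromosome 9.

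Knockout cells came from lungs of mice with VE-Cadherin-Cre and both HIF-2a alleles floxed. The VE-cadherin promoter drives the recombinase in endothelial cells. Control cells are described in 3 ways, as floxed/floxed, as VE-Cadherin-Cre floxed/WT, and as wild type. Both groups were selected several times with endothelial surface markers and kept for 16 h at 0.5% oxygen, so all 6 arrays (3 of knockout and 3 of control cells) are of cells at low oxygen. Strain and age are not given in the labels used here. Nor do they name the culture or animal behind each array, so every p-value below reflects the spread among these 6 arrays alone, which may be technical.

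Complex I is the entry point of the respiratory chain. It takes electrons from NADH, passes them along a chain of iron–sulfur clusters to ubiquinone, and pumps protons across the inner mitochondrial membrane. Its nuclear-encoded subunits form the N module, which oxidises NADH, the Q module, which reduces ubiquinone, and the proximal and distal membrane arms, and they are joined with mitochondrially encoded subunits by assembly factors that leave the finished enzyme. Cells at low oxygen are known to restrain respiration, in part through HIF factors, and whether complex I genes depend on HIF-2α in hypoxic endothelium is the question the comparison bears on.

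Several properties of the arrays touch every value below. The Epas1 gene, which encodes HIF-2α, read 8920.4 to 9859 intensity units in knockouts and 9444 to 9611 in controls in its bright probe set (log2 difference -0.025 ± 0.041 SE, adjusted p = 0.753). Which exons were deleted is not given in the labels, so this probe set does not check the genotype. Of 10 endothelial markers, 10 lay over a signal of 16 in at least 1 array, although Vwf reached only 32.9 to 47.6 in knockouts and 35.5 to 69.1 in controls. Cldn5 was also dim, at 15.2 to 37.6 in knockouts and 38.0 to 74.7 in controls (log2 difference -0.80, adjusted p = 0.140). All 6 epithelial and all 7 fibroblast and mural markers lay under 16 in every array, as did 5 of 6 leukocyte markers, Ptprc among them. The exception, Cd68, had a log2 difference of -2.01 (adjusted p = 0.00762). Of the 10 endothelial markers 4 fell (Pecam1, Tek, Tie1 and Erg), beside 5.07% of all genes. The summed signal of the list was 95949 to 106680 in knockouts and 120464 to 129286 in controls. Of 6 genes of cycling cells, 4 were called higher (Ccnb2, Mcm5, Birc5 and Pcna), beside 8.63% of all genes. Ccnb2 lies on chromosome 9. Mki67 (log2 difference -0.33, adjusted p = 0.774) and Top2a (0.044, adjusted p = 0.903) were not called, and their groups overlapped. The summed signal of the 6 genes was 77134 to 83747 in knockouts and 58241 to 62308 in controls. The part of these marker differences in the results below was not tested. Over all genes, the SD of the log2 difference was 0.14 between controls 1 and 3, and 0.31 to 0.68 in the other pairs of arrays within a group.

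Most complex I genes read slightly higher without HIF-2α, and few of them passed the test. Of the 44 genes, 42 passed the filter on dim probe sets and were tested on log2(signal + 16). At an adjusted p under 0.05, 6 rose (Ndufaf4, Ndufaf2, Ndufa12, Ndufv2, Ndufs7 and Ndufc1), 1 fell (Ndufaf1) and 35 did not pass. The 6 make 14.3% of the members, beside 8.63% of all 12277 genes tested that rose, and the 1 makes 2.38%, beside 5.07% that fell. Among the 2180 genes between the lower and upper quartile of the members' signal (4564 to 16396 intensity units), 11.8% rose and 7.43% fell, so the members' share of rises lay nearer to that of bright genes. At an unadjusted p under 0.05, 20 of the 42 members tested were higher and 1 was lower. Of all genes, 21.1% were higher and 11.3% lower at that threshold. In bulk RNA, fewer cells of a type and less RNA per cell cannot be told apart.

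The size of the shift was small. The median log2 difference, knockout minus control, was 0.19 over the members and 0.0071 over all genes. Over the 2180 genes of like signal it was 0.016. The difference was positive in 37 of 42 members (88.1%), against 62.0% of all genes. All 3 knockout arrays lay above all 3 controls in 22 members, or 52.4%, beside 23.4% of all genes, and below them in 1 member, or 2.38%, beside 12.8%. These shares describe the members and were not tested as a list. The median half-width of the 95% interval of a member was 0.20, and 36 of the 42 intervals lay wholly below a rise of 1 on the log2 scale.

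**Figure D1:**
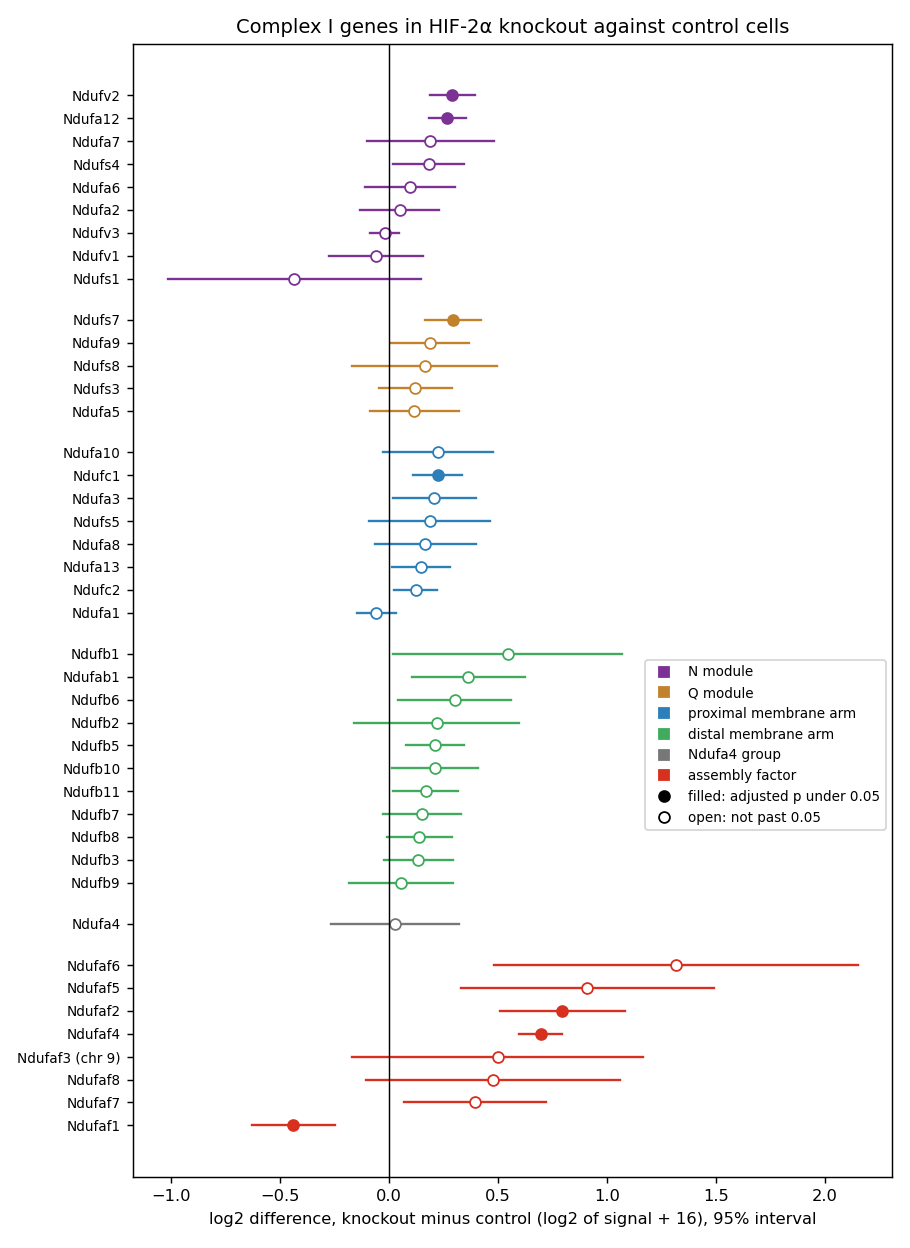
Log2 difference (knockout minus control, on log2 of signal + 16) of the 42 tested complex I genes, grouped by module, with points for the estimates and bars for 95% intervals. Filled points mark the 6 genes that rose and the 1 that fell, and assembly factors reach further from 0 than most structural subunits.

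The assembly factors held the largest differences. Of 8 tested, Ndufaf4 and Ndufaf2 rose, Ndufaf1 fell and 5 did not pass, with a median of 0.60 and a range of -0.44 to 1.32. Their mean signals ran from 109.9 to 4585 intensity units. The median difference over the 6229 genes within that range was 0.089, with 684 (11%) called higher and 374 (6%) called lower.

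Ndufaf4, an early assembly factor that works with Ndufaf3 on the Q module, read 2449, 2285 and 2273 intensity units in knockouts 1 to 3, against 1416, 1466 and 1422 in controls 1 to 3. The groups lay far apart, and the spread inside each was small. Its mean signal was 2336 ± 98.3 in knockouts and 1435 ± 26.8 in controls (SD, n = 3 each), and the log2 difference was 0.70 ± 0.037 (SE, adjusted p = 0.00295). A second, dimmer probe set of the gene did not show the rise (0.14 ± 0.45), and the mean of both probe sets gave 0.42 with adjusted p = 0.265.

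Ndufaf2, a late factor and a paralogue of the subunit Ndufa12, read 6083, 6217 and 5166 intensity units in knockouts 1 to 3, against 3183, 3736 and 3123 in controls 1 to 3. Knockout 3 was the lowest knockout and control 2 the highest control, and the groups did not overlap. The log2 difference was 0.80 ± 0.11 (SE, adjusted p = 0.0195).

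Ndufaf1, which helps to build the proximal membrane arm, went the other way and read 748, 833 and 696 intensity units in knockouts 1 to 3, against 1066, 1008 and 1019 in controls 1 to 3. Every knockout array lay below every control, and the log2 difference was -0.44 ± 0.073 (SE, adjusted p = 0.0297).

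Ndufaf5 and Ndufaf6 had the largest differences of all members, with wide errors. Ndufaf5, which hydroxylates an arginine of Ndufs7, read 1839.8, 1947 and 1328 intensity units in knockouts 1 to 3, against 873, 1098 and 728 in controls 1 to 3, a log2 difference of 0.91 ± 0.22 (SE, adjusted p = 0.0627). Ndufaf6, needed for early assembly, was the dimmest factor, with 182, 196 and 112 intensity units in knockouts 1 to 3, against 49.3, 82.3 and 37.9 in controls 1 to 3, and its difference was 1.32 ± 0.32 (SE, adjusted p = 0.0615). In both genes the groups did not overlap, but knockout 3 lay well under the other knockouts. Ndufaf7, an arginine methyltransferase, differed by 0.39 ± 0.12 (SE, adjusted p = 0.107) and Ndufaf8, a partner of Ndufaf5, by 0.48 ± 0.22 (SE, adjusted p = 0.222).

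Ndufaf3, the chromosome 9 member and the partner of Ndufaf4, did not pass. It read 1524, 1858 and 1145 intensity units in knockouts 1 to 3, against 976, 1347 and 863 in controls 1 to 3. Knockout 3 lay below control 2, so the groups overlapped, and the log2 difference was 0.50 ± 0.25 (SE, adjusted p = 0.257), with a 95% interval of -0.17 to 1.17. Of the 681 tested genes on chromosome 9, 24.4% were called higher and 2.06% lower (26.4% in either direction), with a median of 0.21, against a median of 0.0061 on the other chromosomes. Ndufaf3 thus lay above its chromosome's median without a call, and without it the other 41 tested members had a median of 0.19 and the same 6 and 1 calls. The 7 called members lie on 6 chromosomes, none of them chromosome 9.

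The bases before the annotated start are shown for the 2 assembly factors that rose, for the 1 that fell and for Ndufaf3, since they carry the calls among the assembly factors and the chromosome 9 value. The sequences are from RefSeq (build GRCm38.p6), 250 bases each, read 5′ to 3′ on the gene's strand, at chr4:24897833-24898082 (plus strand) for Ndufaf4, chr13:108158626-108158875 (minus strand) for Ndufaf2, chr2:119662835-119663084 (minus strand) for Ndufaf1 and chr9:108567437-108567686 (minus strand) for Ndufaf3. Capitals mark ACGTG or GCGTG, the core bound by HIF factors, on either strand, which occur in the bases shown of Ndufaf1 and Ndufaf3.
Ndufaf4: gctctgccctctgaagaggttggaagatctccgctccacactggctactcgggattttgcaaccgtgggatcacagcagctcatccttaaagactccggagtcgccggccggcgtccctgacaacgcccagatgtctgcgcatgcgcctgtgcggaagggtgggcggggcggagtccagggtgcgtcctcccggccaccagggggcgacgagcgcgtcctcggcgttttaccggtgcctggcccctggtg
Ndufaf2: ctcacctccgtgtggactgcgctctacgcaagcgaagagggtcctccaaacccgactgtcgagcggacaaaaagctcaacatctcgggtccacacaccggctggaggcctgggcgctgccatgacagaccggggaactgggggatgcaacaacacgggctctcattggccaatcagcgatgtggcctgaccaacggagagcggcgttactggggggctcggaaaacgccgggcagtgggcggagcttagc
Ndufaf1: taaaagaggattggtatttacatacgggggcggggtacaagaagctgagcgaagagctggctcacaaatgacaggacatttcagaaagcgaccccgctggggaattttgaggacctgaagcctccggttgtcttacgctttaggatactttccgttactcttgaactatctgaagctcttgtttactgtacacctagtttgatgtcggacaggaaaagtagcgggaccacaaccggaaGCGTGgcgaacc
Ndufaf3: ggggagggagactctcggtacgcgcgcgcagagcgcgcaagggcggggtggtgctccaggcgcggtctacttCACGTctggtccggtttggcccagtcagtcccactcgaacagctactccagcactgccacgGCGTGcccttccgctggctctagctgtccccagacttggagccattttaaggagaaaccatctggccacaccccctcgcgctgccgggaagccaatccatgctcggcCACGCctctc

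These letters and the motifs of NRF1, YY1 and ETS factors were searched on both strands in windows of 250 bases before to 50 after the start, which were at hand for 39 of the 44 members and 27025 genes. The degenerate consensus of NRF1, a regulator of respiratory chain genes, was in Ndufa6 and Ndufb4, 5.13% of the members beside 1.41% of all genes. A shorter core of that consensus, tried first, matched Ndufaf4 and Ndufaf5 instead, so these matches depend on how the motif is written. The letters AAGATGGC, read by YY1, were in 7 members (17.9%, beside 3.19%), Ndufc1 and Ndufs7 among them. CCGGAAGT, read by GABPA and other ETS factors, was in 1 member, Ndufs3 (2.56%, beside 4.31%). ACGTG or GCGTG was in 22 members (56.4%, beside 46.7%), and both forms occurred in Ndufaf3. In Ndufaf2 the matches to GCGTG crossed or followed the start, outside the bases shown. A match describes letters only and is no evidence of binding.

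**Figure D2:**
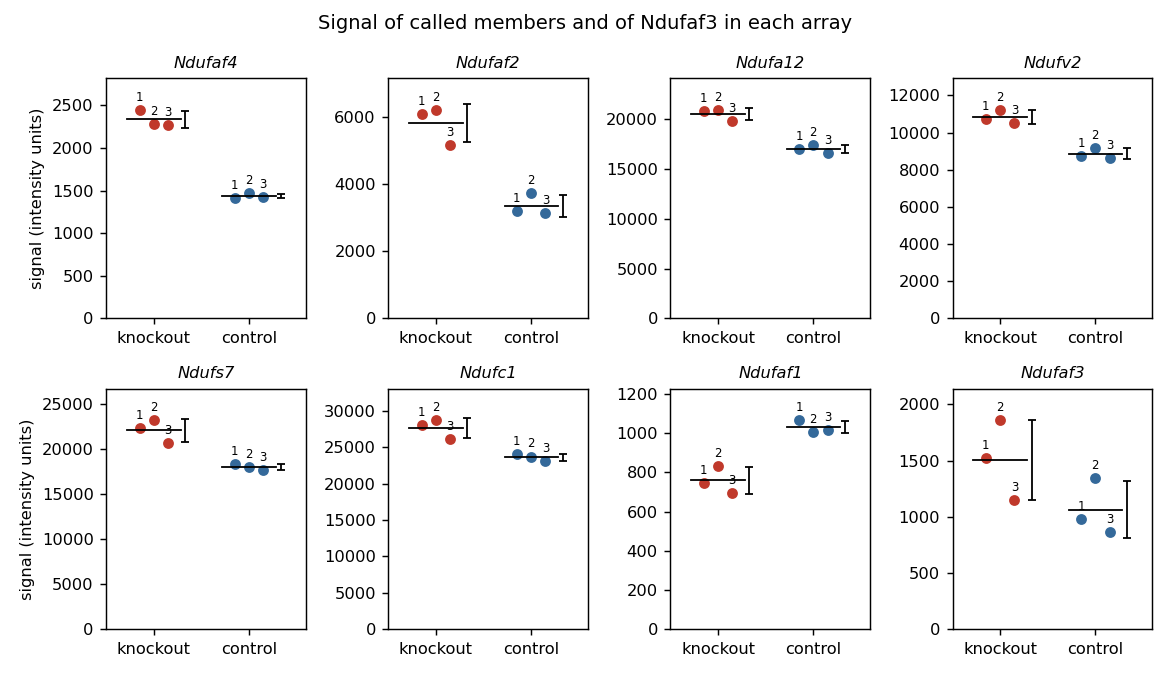
Signal (intensity units, linear axis from 0) of the 7 called members and of Ndufaf3 in each array, with knockout left of control, array numbers beside the points, lines at the means and bars for ± 1 SD (n = 3). The groups do not overlap in the called members, whereas knockout 3 lies under control 2 for Ndufaf3.

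The structural subunits had smaller differences than the assembly factors, a contrast between gene groups that was not tested. Of 34, 33 were tested, 4 rose, 0 fell and 29 did not pass, beside 8.63% of all genes that rose and 5.07% that fell. The median was 0.17, and 29 differed by less than 0.3 in either direction. Their mean signals ran from 46.1 to 29915 intensity units with a median of 11726. The assembly factors were the dimmer genes. Across the 42 members Spearman's rho of signal and log2 difference was -0.35, and across the 33 structural subunits it was -0.091, both as descriptions over genes measured on the same arrays.

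In the N module, 2 of 9 tested subunits rose and 7 did not pass, with a median of 0.10. Ndufv2, which carries an iron–sulfur cluster beside the NADH site, read 10745, 11232 and 10527 intensity units in knockouts 1 to 3, against 8743, 9182 and 8623 in controls 1 to 3. Ndufa12, an accessory subunit that takes the place of Ndufaf2 late in assembly, read 20810.0, 20981 and 19848 intensity units in knockouts 1 to 3, against 17068, 17439.7 and 16665 in controls 1 to 3. The arrays of a group lay close together in both genes, and no knockout array fell into the control range. Log2 differences were 0.29 ± 0.039 (SE, adjusted p = 0.0181) for Ndufv2 and 0.27 ± 0.032 (SE, adjusted p = 0.0153) for Ndufa12.

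The other core subunits of the N module had negative differences that did not pass. Ndufs1, which holds several iron–sulfur clusters, read 2413, 1798 and 3078 intensity units in knockouts 1 to 3, against 3409, 2847 and 3409.9 in controls 1 to 3. Knockouts 1 and 2 were low while knockout 3 lay inside the control range, and the difference was -0.43 ± 0.22 (SE, adjusted p = 0.256). Ndufv1, which binds NADH and the flavin, read 9609.8, 10880.1 and 9098 intensity units in knockouts 1 to 3, against 10212, 10803 and 9767 in controls 1 to 3, with a difference of -0.060 ± 0.082 (SE, adjusted p = 0.684) and a 95% interval of -0.27 to 0.15. Ndufv3, the brightest member at a mean signal of 29915, had a difference of -0.019 ± 0.026 and the narrow interval of -0.087 to 0.048. Ndufs4, known from a mouse model of mitochondrial disease, had the groups apart at 5309, 5275 and 5065 in the knockout arrays and 4486, 5002 and 4325 in the control arrays, but did not pass, with a difference of 0.18 ± 0.063 (SE, adjusted p = 0.129). The accessory subunits Ndufa2, Ndufa6 and Ndufa7 differed by 0.050, 0.10 and 0.19.

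In the Q module, 1 of 5 tested subunits rose and 4 did not pass, with a median of 0.16 and all 5 differences positive. Ndufs7, whose iron–sulfur cluster hands electrons to ubiquinone, read 22339, 23169.5 and 20680.4 intensity units in knockouts 1 to 3, against 18288, 17966 and 17688 in controls 1 to 3. All knockouts exceeded all controls, by 0.29 ± 0.048 (SE, adjusted p = 0.029), and a second probe set of the gene gave 0.59 ± 0.13 in a fit over probe sets (adjusted p = 0.0657). Ndufs3 and Ndufs8, core subunits of the connecting arm, differed by 0.12 ± 0.063 (SE, adjusted p = 0.265) and 0.16 ± 0.13 (SE, adjusted p = 0.436), with intervals of -0.044 to 0.29 and -0.17 to 0.50. Ndufa9 differed by 0.19 ± 0.068 with groups that did not overlap, and Ndufa5 by 0.12 ± 0.078 with overlap.
Over the 6 core subunits named here, 2 rose (Ndufv2 and Ndufs7) and 4 did not pass, with a median of 0.14.

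In the proximal membrane arm, 1 of 8 subunits rose and 7 did not pass, with a median of 0.18. Ndufc1, a small subunit beside Ndufc2, read 28106, 28728 and 26141 intensity units in knockouts 1 to 3, against 24091, 23752 and 23168 in controls 1 to 3, and its groups were separate, with a log2 difference of 0.22 ± 0.043 (SE, adjusted p = 0.0395). Ndufc2 read 17089.8, 17756 and 16298 in the knockout arrays and 15352, 15796 and 15812 in the control arrays, also separate, with a difference of 0.12 ± 0.038 (SE, adjusted p = 0.105). Ndufa13, also known as GRIM-19, Ndufa3 and Ndufa10 had separate groups too and differed by 0.15, 0.21 and 0.23, none past the threshold. Ndufa8 and Ndufs5 overlapped and differed by 0.17 and 0.19. Ndufa1, an X-linked subunit, was the member of this arm with a negative value (-0.057 ± 0.035, interval -0.15 to 0.034).

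In the distal membrane arm no gene passed, although all 11 tested differences were positive, with a median of 0.21, and 6 of the 11 had an unadjusted p under 0.05, beside 21.1% of all genes that were higher at that threshold. Groups were separate in 7 of the 11, with all knockouts above all controls, as in 23.4% of all genes. The largest values were those of Ndufb1 and Ndufab1. Ndufb1 was the dimmest member tested, at 60.4, 73.6 and 40.4 in the knockout arrays and 29.2, 40.3 and 32.9 in the control arrays. Its difference was 0.54 ± 0.20 (SE, adjusted p = 0.145), which the added 16 makes smaller. With 1 added instead it was 0.72 (adjusted p = 0.128). Ndufab1, the mitochondrial acyl carrier protein, read 8428, 9069.5 and 7229.9 intensity units in knockouts 1 to 3, against 6075, 6739 and 6316 in controls 1 to 3, a difference of 0.36 ± 0.10 (SE, adjusted p = 0.0784). Ndufb6 differed by 0.30 ± 0.10 (SE, adjusted p = 0.115) and Ndufb5, nearest to the threshold, by 0.21 ± 0.051 (SE, adjusted p = 0.0619). The remaining 7 ranged from 0.055 for Ndufb9 to 0.22 for Ndufb2. The probe set that names Ndufb4 alone averaged 4.22 in knockouts and 4.21 in controls, at the floor of the table, and was not tested.

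Ndufa4, now assigned to complex IV, and its paralogue Ndufa4l2 showed no call. Ndufa4 read 8136, 7786 and 6568 intensity units in knockouts 1 to 3, against 6994, 8122 and 6916 in controls 1 to 3, a difference of 0.028 ± 0.11 (SE, adjusted p = 0.909) with an interval of -0.27 to 0.32. Ndufa4l2 is known in other cells as a gene that HIF-1 induces at low oxygen and that lowers complex I activity. Here its probe set stayed between 4.11 and 4.13 in all 6 arrays, at the floor of the table, and no fold is given.

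**Figure D3:**
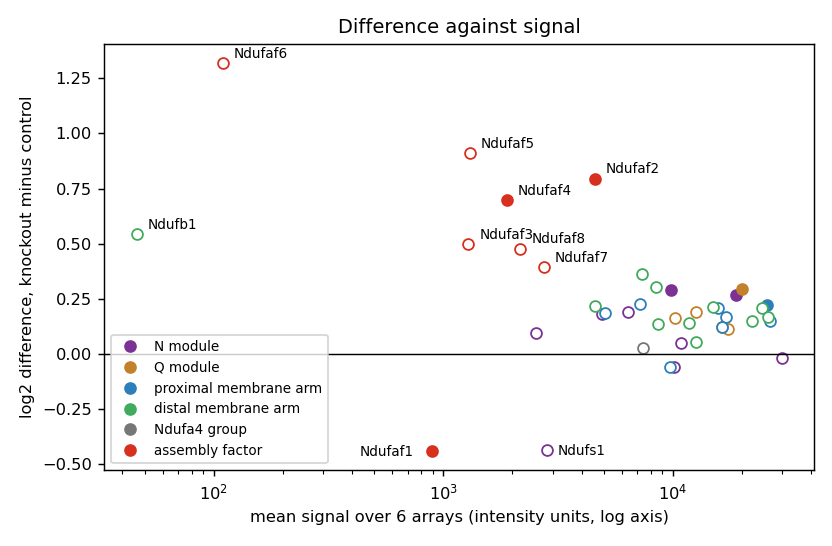
Log2 difference (knockout minus control) of the 42 tested members against their mean signal over 6 arrays (intensity units, log axis), with filled points for genes past an adjusted p of 0.05. Assembly factors lie between 109.9 and 4585 with the larger differences, and most structural subunits lie to the right within 0.3 of 0.

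The level of the members varied between the arrays of a group. Relative to each gene's mean over the 6 arrays, the median level of the 42 genes was 0.13, 0.18 and -0.025 in knockouts 1 to 3, against -0.11, -0.019 and -0.16 in controls 1 to 3. Knockout 3 was the lowest knockout in 39 of 42 members and control 2 the highest control in 33. Knockout 3 exceeded control 2 in 24 of 42, while knockouts 1 and 2 both exceeded every control in 34. The mean log2 level of 10 bioB and bioC probe sets, spiked-in bacterial controls, ranked the arrays in the same order except that controls 1 and 3 changed places, at 11.03, 11.08 and 10.86 in knockouts 1 to 3 and 10.66, 10.88 and 10.78 in controls 1 to 3. With that level as a covariate, the median of the members was 0.046 and 1 member, Ndufaf4, was called, while 1.34% of all genes were called higher and 2.28% lower. Knockouts 1 and 2 lay above every control in spike-in level, and knockout 3 above controls 1 and 3. The covariate and the genotype thus cannot be fully told apart. The log2 difference between the 3′ and 5′ probe sets of actin, a sign of RNA quality, was 0.51, 0.51 and 0.57 in knockouts 1 to 3 and 0.63, 0.54 and 0.67 in controls 1 to 3. It ranked the 6 arrays in the inverse order of the members' medians, and its part in the result was not tested.

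**Figure D4:**
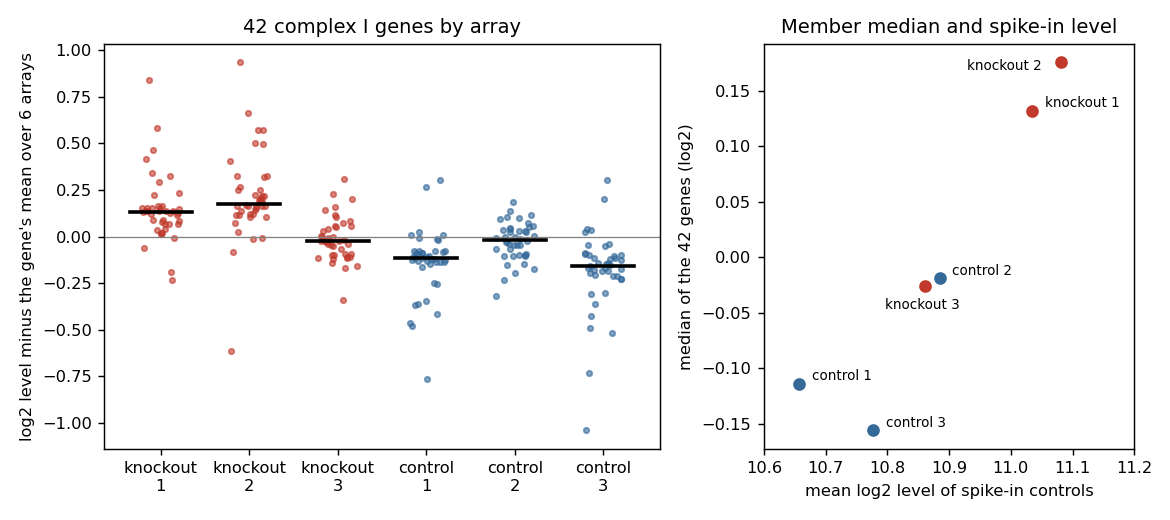
Left, log2 level of each of the 42 members minus its mean over the 6 arrays, by array, with bars at the medians; right, those medians against the mean log2 level of the spike-in controls of the array. Knockout 3 and control 2 sit together near 0 in both panels, between the other knockouts and the other controls.

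Every call but that of Ndufaf4 was lost when some single array was left out. Each such fit also has fewer arrays, and the part of that in the lost calls was not tested. The number of the 42 members that rose was 1, 3 and 19 when knockouts 1 to 3 were left out in turn, and 1, 5 and 1 when controls 1 to 3 were. The share of all genes called higher moved along, at 1.26%, 4.07% and 16.2% with knockouts 1 to 3 left out in turn, and 0.766%, 4.94% and 0.904% with controls 1 to 3 left out in turn. Ndufaf4 kept its call in all 6 cases. Ndufa12 and Ndufv2 lost theirs without control 1, control 3 or knockout 1, and Ndufaf2 without any of these or knockout 2. Ndufs7 and Ndufc1 kept theirs only without knockout 3, and Ndufaf1 only without knockout 2 or knockout 3. Without the filter on dim probe sets, Ndufs7, Ndufc1 and Ndufaf1 lost their calls (adjusted p = 0.0511, 0.0667 and 0.055), and with quantile normalization Ndufaf1 did (0.051). Means of probe sets ended the calls of Ndufa12 (0.0564) and Ndufc1 (0.0749) as well as that of Ndufaf4. With single arrays left out, the log2 difference of Ndufaf2 stayed between 0.75 and 0.88. Ndufa12 ran from 0.25 to 0.29, Ndufv2 from 0.27 to 0.32 and Ndufs7 from 0.26 to 0.34. Ndufc1 ran from 0.20 to 0.26 and Ndufaf1 from -0.51 to -0.38.

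Further probe sets mostly pointed the same way. Of the 44 members, 22 have several probe sets. Over a mean signal of 16 there were 36 further ones in 21 genes, and 33 had the sign of the brightest. The 3 opposite ones belong to Ndufab1, Ndufb2 and Ndufb8, and those of Ndufab1 and Ndufb2 were dim, with mean signals of 21.2 and 17.4. The further probe set of Ndufb8 fell by 0.41 ± 0.074 (adjusted p = 0.0448 over 27022 probe sets), against a difference of 0.14 ± 0.057 in its brightest one. In that fit, 5 of 84 tested Nduf probe sets rose and 2 fell, beside 4.46% and 3.19% of all probe sets. Sizes differed between probe sets of a gene. A dimmer set gave 0.45 for Ndufb11, 0.42 for Ndufc1 and 0.59 for Ndufs7, against 0.17, 0.22 and 0.29 in the brightest. Others were smaller than the brightest, at 0.20 and 0.19 for Ndufa12 and 0.14 for Ndufaf4, against 0.27 and 0.70. With means of probe sets the members' median was 0.19.

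Complex I factors outside the Nduf symbols held 2 further rises. Of 14 listed, 13 were tested, 2 rose and 11 did not pass, with a median of 0.40, beside 8.63% of all genes that rose. The negative differences were those of Tmem126b (-0.83 ± 0.48, SE, adjusted p = 0.307) and Lyrm2 (-0.18 ± 0.070, SE, adjusted p = 0.159). In Lyrm2 all knockouts lay below all controls. Chchd4, which imports and oxidises small mitochondrial proteins, read 4820.5, 5170.5 and 3787 intensity units in knockouts 1 to 3, against 2269.9, 2399.7 and 2176 in controls 1 to 3. Ecsit, which works with Ndufaf1, read 1072, 1262 and 888 intensity units in knockouts 1 to 3, against 479.6, 633 and 431 in controls 1 to 3. In both genes every knockout was well above every control, with log2 differences of 0.99 ± 0.13 (SE, adjusted p = 0.0182) and 1.04 ± 0.20 (SE, adjusted p = 0.0391). Ecsit and Foxred1, an assembly factor, lie on chromosome 9 like Ndufaf3, where 24.4% of the tested genes were called higher. Foxred1 differed by 1.04 ± 0.27 (SE, adjusted p = 0.0699). Tmem70 differed by 0.40 ± 0.093 (SE, adjusted p = 0.056). Both calls ended without control 1, control 3 or knockout 1; that of Chchd4 also without control 2, and that of Ecsit also without knockout 2.

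Of 11 regulators of mitochondrial genes, 0 passed the limma test, and the median difference was 0.17. Ppargc1a and Ppargc1b, which lay under 16 in every array, enter that median. Pprc1, Nrf1, Tfb1m and Polrmt were higher at an unadjusted p under 0.05, as were 21.1% of all genes. The coactivator Pprc1 differed by 0.51 ± 0.11 (SE, adjusted p = 0.0524) and the factor Nrf1 by 0.77 ± 0.25 (SE, adjusted p = 0.116). Tfb1m, which methylates mitochondrial ribosomal RNA, and Polrmt, the mitochondrial RNA polymerase, differed by 1.18 ± 0.34 (SE, adjusted p = 0.0873) and 0.68 ± 0.20 (SE, adjusted p = 0.0926). In these 4 genes the groups did not overlap.

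Among 9 hypoxia-linked mitochondrial genes, 7 were tested, 1 fell and 6 did not pass, beside 5.07% of all genes that fell. The median was 0.0060. Bnip3, which marks mitochondria for removal, read 18407, 17725 and 20540.5 intensity units in knockouts 1 to 3, against 23329.6, 22584 and 24235 in controls 1 to 3, with all knockouts below all controls and a difference of -0.31 ± 0.066 (SE, adjusted p = 0.0484). That call ended without any 1 array other than knockout 3. Higd1a differed by 0.16 ± 0.037 (SE, adjusted p = 0.0577), and Cox4i1 and Pdk1, the kinase that restrains pyruvate entry, by 0.10 ± 0.040 (SE, adjusted p = 0.166) and -0.12 ± 0.050 (SE, adjusted p = 0.176). Cox4i2, the complex IV isoform known for low oxygen, stayed at the floor of the table in all arrays.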

How the data were processed

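Per the labels' protocols, total RNA was amplified, biotin-labelled and put on 1 array per sample, with 3 knockout and 3 control arrays. The deposited table holds 1 intensity per probe set on a linear scale. MAS5 and GCRMA appear, with no role or version, in the submitters' processing notes. Array quantiles were nearly equal, so no further normalization was applied. Of 45101 probe sets, 64 were array controls, 34958 had 1 gene symbol, 932 had more than 1 and name no gene here, and 9211 had none. Genes were placed on chromosomes through a gene table of GRCm38.p6, which matched all 44 members.

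Probe sets in the dimmest 40% by mean were dropped, which left 27022 and, with the brightest per gene, 12277 genes. Values were log2(intensity + 16), so differences of dim genes are understated. Groups were compared with limma 3.58.1 in R 4.3.3 (two-sided, Benjamini-Hochberg over all genes, threshold 0.05), which was tested on simulated data. The number of arrays limits the precision. Alternatives were a pseudocount of 1, no filter, quantile normalization, means of probe sets, a replicate block, array weights, a spike-in covariate, controls 1 and 3 averaged, each array left out, and, added after the data were seen, leaving out control 2 and knockout 3. The rule named the called, core and chromosome 9 members, Ndufa4 and Ndufa4l2, the 6 largest differences, the brightest and dimmest member, and up to 4 genes of each other list by p; members named beyond it were chosen after their values were seen. NRF1 was searched by its degenerate consensus, chosen after a shorter core had been tried. Members and lists were chosen with earlier results of these data known. Figures were drawn with matplotlib 3.10.9.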

Additional observations from a re-analysis of the deposited data

How the results depend on the processing

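Of 630 recomputed member differences, 23 changed sign, and 25 of the 42 tested members never did. Each count of members below is out of 42 tested, or 44 without a filter, while each percent is of all genes. The number of members that rose was 6, beside 8.63% of all genes. It was 4 without a filter (2.82% of all genes called higher), 3 with means of probe sets (7.64%), 13 with the replicate block (16.9%), 35 with array weights (35.5%), 1 with the spike-in covariate (1.34%), 1 with controls 1 and 3 averaged (0.774%), 27 without control 2 and knockout 3 (24%), and 1 to 19 with single arrays left out (0.766% to 16.2%). The number that fell was 1; it was 0 without a filter, with quantile normalization, the spike-in covariate and controls 1 and 3 averaged, 2 with array weights, and 0 to 1 with single arrays left out. The members' median of 0.19 was 0.046 with the spike-in covariate and 0.28 without control 2 and knockout 3. The cause of these changes was not tested.

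With the spike-in covariate the sign turned for Ndufa2 (-0.066), Ndufa4 (-0.22), Ndufa6 (-0.032), Ndufa7 (-0.055), Ndufa8 (-0.035), Ndufaf3 (-0.039), Ndufaf8 (-0.029), Ndufb2 (-0.083), Ndufb7 (-0.00035), Ndufb9 (-0.14), Ndufs1 (0.033), Ndufs3 (-0.0061), Ndufs5 (-0.031) and Ndufs8 (-0.11). Ndufa4 was -0.0097 with controls 1 and 3 averaged and ran from -0.034 to 0.12 with single arrays left out, Ndufb9 from -0.014 to 0.12 and Ndufv3 from -0.037 to 0.00055. Ndufb8 was -0.14 as a mean of probe sets, and Ndufv1 0.034 without control 2 and knockout 3.

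The labels number the arrays 1 to 3 in each group. Deviations from the group means of same-numbered arrays correlated at -0.47, 0.84 and 0.80 over genes. These values do not settle whether same-numbered arrays are pairs, and the main fit does not pair them. With the replicate block 13 of the 42 members rose and 1 fell, beside 16.9% and 7.49% of all genes.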

Other observations

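Some Nduf probe sets are shared with another gene or a pseudogene and were not used for the members; 8 Nduf symbols occur in such sets alone and are no members. In a fit over probe sets, the set shared by Ndufs6 and Ndufs6b read 8051, 8859 and 6463 intensity units in knockouts 1 to 3, against 5752, 6410.5 and 5344 in controls 1 to 3, a log2 difference of 0.41 (adjusted p = 0.169). The groups did not overlap. The set shared by Ndufa11 and Ndufa11b differed by 0.16 (adjusted p = 0.264), and the brighter one shared by Ndufb4 and its copies Ndufb4b and Ndufb4c by 0.14 (adjusted p = 0.297), although the Ndufb4 probe set of its own lay at the floor. The set shared by Ndufab1 and a pseudogene differed by 0.57 (adjusted p = 0.0923), beside 0.36 in the brightest set that names Ndufab1 alone.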
